A study of Mus musculus with 10 samples.

Results

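The genes described here are 40 genes of glucose uptake, glycolysis, lactate and pyruvate handling, and glycogen turnover, taken by name from a table of 55291 genes. They were chosen as a pathway, with earlier results of these data known, and 5 of them (Eno3, Pgam2, Pygm, Pfkm and Gys1) encode isoforms named for skeletal muscle. RNA had been sequenced from the right submandibular gland, a salivary gland, of C57BL/6J mice 8 weeks old and labelled female. In the ligated group (5 libraries) the duct of the gland had been tied at both ends, and in the sham group (5 libraries) the skin had been cut and the gland dissected free without tying. Both groups were taken at day 7, the labels name no genetic change in either, and the design text gives 5 mice a group. Values are FPKM, read fragments divided by gene length and by library size, so levels can be compared between genes.

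Glycolysis breaks glucose down to pyruvate, which is turned into lactate and exported, or enters the mitochondria when pyruvate dehydrogenase is not held back by its kinases. Glycogen is the stored form of glucose, built by glycogen synthase and broken down by glycogen phosphorylase. Many of these enzymes exist as isoforms from separate genes: a widely expressed form stands beside a form known from muscle, liver, brain or blood cells. The muscle forms of enolase, phosphoglycerate mutase and glycogen phosphorylase are classical markers of mature muscle fibres, while the salivary gland is made of secretory acini and ducts.

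The libraries held 12105738 to 17305595 assigned reads each, as recovered from the values. The 6 acinar marker genes were all tested and all lower after ligation, with summed levels of 6739 to 60682 FPKM in ligated glands and 125419 to 267342 FPKM in sham glands. All 10 libraries held transcripts of 4 Y-linked genes, at 0.770 FPKM or more (Ddx3y, Eif2s3y, Kdm5d, Uty), and Xist at no more than 0.0267 FPKM, which goes against the labelled sex. Some libraries stood apart. The parotid transcript Bpifa2 was at 16877 to 34754 FPKM in ligated 2, 3 and 5 and at 14814 FPKM in sham 1, against at most 949 FPKM elsewhere. In these libraries Amy1 was at 2682 to 8365 FPKM, against at most 28.3 FPKM elsewhere. Cst10 was at 397 to 1416 FPKM there and at most 2.97 FPKM elsewhere. The other parotid markers did not follow. Car6 was at 1788 to 8728 FPKM there and 4643 to 18095 FPKM elsewhere, and Prr27 was at 0 in all 10 libraries. Lymph node markers summed to 256 to 332 FPKM in ligated 1, 2 and 3 and to 441 FPKM in sham 1, against at most 19.5 FPKM elsewhere. Ligated 1 kept the highest acinar sum of its group and had the lowest skeletal muscle sum. Results that turn on these libraries are given with and without them.

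After ligation 10 of these genes rose past the threshold set below and 1 fell. Of the 40 genes, 36 reached 1 FPKM in at least 5 libraries and were tested on the log2(FPKM + 1) scale with limma, and Pygm, Slc2a3, Pfkfb1 and Eno2 did not. A gene was called at a Benjamini-Hochberg adjusted p under 0.05 over all 11856 genes tested together with a log2 difference of 1 or more in either direction. On the values as deposited 10 of the 36 were called higher (Pdk4, Eno3, Pygl, Slc16a1, Pfkfb3, Pgam2, Pfkfb4, Hk3, Slc16a3 and Pfkp), where 17.1% of all tested genes were, and 1, Fbp2, was called lower, where 1.16% of all tested genes were. By the adjusted p alone 23 were higher and 1 lower, against 56.8% and 3.35% of all tested genes. The median log2 fold change was 0.61 over the 36 genes and 0.53 over all genes tested. Without the 5 muscle isoforms it was 0.60, and 8 of 32 tested genes were called higher and 1 lower. Without the 4 libraries with parotid transcripts 13 of the 36 were called higher (background 18.3%) and 0 lower (background 0.666%), with Eno1, Ldha and Pkm added. Leaving out the 4 libraries with lymph node transcripts, a choice made after the data were seen, kept only ligated 4 and 5. There 15 were called higher (background 21.9%) and 1 lower (background 1.41%), with Eno1, Ldha, Pkm, Pgm2 and Slc2a1 added. Both fits kept ligated 4, the highest ligated library for each of the added genes.

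The median shift of 0.53 was that of the table as a whole, whose FPKM summed to 337121 to 454370 in ligated and 504092 to 604875 in sham libraries. Median-ratio scaling, which divides each library by its median ratio to the average library, brought the median over all genes to 0.07 and that over the 36 genes to 0.12. Then 8 of the 36 were called higher (background 7.87%) and 2 lower (background 3.31%). Pfkp (0.64) and Slc16a3 (0.74) no longer reached the size needed, and Pfkm was added to the lower calls. A further 9 genes changed sign, none of them a called gene, so the direction of an uncalled gene with a small change depends on the scaling. In 17 of the 36 genes all 5 ligated values lay above all 5 sham values (30.2% of all tested genes did so), in 1 all lay below (1.12%), and in 18 the groups overlapped. Pygl had entered the test through its ligated values alone, being below 1 FPKM in every sham library. Hk3 and Slc16a1 reached 1 FPKM in all 5 ligated libraries but in only 1 sham library each, and Pfkfb3 in 4 sham libraries. These genes too needed their ligated values to pass the filter.

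**Figure D1:**
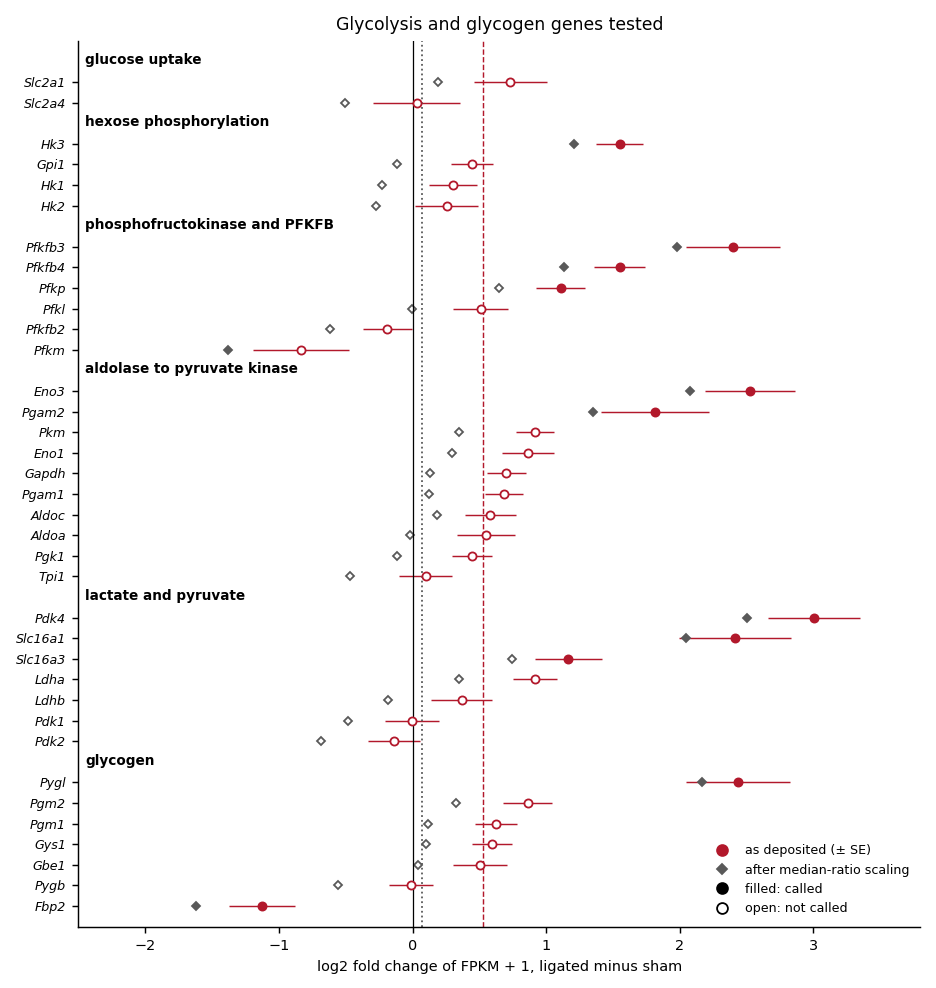
Log2 fold change of FPKM + 1, ligated minus sham, for the 36 genes tested, grouped by role; red circles are the values as deposited with their SE, grey diamonds the values after median-ratio scaling, and filled symbols are called genes. The dashed and dotted lines mark the medians of all tested genes, 0.53 as deposited and 0.07 after scaling; Pdk4 (3.00) lies farthest to the right and Fbp2 (-1.12) farthest to the left.

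Eno3, Pgam2 and Pygm, the muscle forms of enolase, phosphoglycerate mutase and glycogen phosphorylase, lay above every sham library in 4 or 5 of the 5 ligated libraries and shared 1 order across them. On GRCm38 (GENCODE M21), Eno3 (ENSMUSG00000060600.15) lies on chromosome 11 at 70657202 to 70662513, Pgam2 (ENSMUSG00000020475.3) on chromosome 11 at 5801640 to 5803733, and Pygm (ENSMUSG00000032648.14) on chromosome 19 at 6384399 to 6398459. Because these 3 genes varied together, their promoters are shown, with that of Pgam1, the widely expressed partner of Pgam2, beside them. Each sequence runs from 250 bases before to 50 bases after the RefSeq start (RefSeq, GRCm38.p6), 5′ to 3′ on the gene's strand, at chr11:5803747-5804046 (minus) for Pgam2, chr11:70656926-70657225 (plus) for Eno3, chr19:6384158-6384457 (plus) for Pygm and chr19:41911621-41911920 (plus) for Pgam1. Capitals mark E-boxes (CANNTG, which reads the same on both strands), the short motif bound by the muscle regulators of the MyoD family and by many other factors.
Pgam2: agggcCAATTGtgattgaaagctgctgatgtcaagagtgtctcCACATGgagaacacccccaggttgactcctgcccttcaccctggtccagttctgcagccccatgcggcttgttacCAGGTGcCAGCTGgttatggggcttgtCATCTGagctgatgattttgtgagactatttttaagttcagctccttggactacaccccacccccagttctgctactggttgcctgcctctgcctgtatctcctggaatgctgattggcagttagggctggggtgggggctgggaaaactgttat
Eno3: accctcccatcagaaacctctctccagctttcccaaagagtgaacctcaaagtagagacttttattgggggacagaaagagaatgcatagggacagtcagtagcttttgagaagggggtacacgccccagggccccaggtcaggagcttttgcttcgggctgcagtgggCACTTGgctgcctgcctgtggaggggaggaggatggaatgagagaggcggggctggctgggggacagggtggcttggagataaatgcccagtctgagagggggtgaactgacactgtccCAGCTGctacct
Pygm: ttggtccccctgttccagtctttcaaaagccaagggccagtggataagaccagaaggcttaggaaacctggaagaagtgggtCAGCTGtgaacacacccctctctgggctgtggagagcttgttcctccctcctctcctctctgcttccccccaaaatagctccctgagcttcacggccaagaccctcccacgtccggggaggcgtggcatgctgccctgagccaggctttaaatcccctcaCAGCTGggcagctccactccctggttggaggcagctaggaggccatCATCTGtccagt
Pgam1: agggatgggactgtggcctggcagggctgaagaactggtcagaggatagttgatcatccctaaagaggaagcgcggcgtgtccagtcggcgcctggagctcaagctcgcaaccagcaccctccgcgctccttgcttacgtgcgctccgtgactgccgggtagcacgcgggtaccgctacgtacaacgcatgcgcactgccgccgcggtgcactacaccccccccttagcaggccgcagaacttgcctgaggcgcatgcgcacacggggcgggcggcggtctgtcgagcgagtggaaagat

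The Pgam2 window held 5 E-boxes, that of Eno3 2 and that of Pygm 3, while that of Pgam1 held 0. Other genes of the 40 held as many. The window of Fbp2, which was called lower, held 5. The Eno1 windows held 2, 0 and 0, and the Pfkm windows 3, 0, 1 and 1. An E-box is a common motif: 72.3% of 32851 RefSeq promoter windows of the same length held at least 1, 39.6% at least 2, 17.6% at least 3 and 2.1% at least 5. Of the 57 windows found for 38 of the 40 genes, 40 held an E-box (70.2%). The core of the hypoxia response element (ACGTG or GCGTG, on either strand) was in 42 of the 57 windows (73.7%), against 43.8% of all windows. It was absent from the Pgam2 window and occurred 1 time in the Eno3 window, 2 times in the Pygm window and 3 times in the Pgam1 window. These matches are letters in a window and say nothing of binding.

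Eno3 had 6.71, 21.3, 10.3, 31.5 and 17.4 FPKM in ligated libraries 1 to 5, against 2.40, 1.75, 1.23, 2.38 and 1.61 FPKM in sham libraries 1 to 5. All ligated values lay above all sham values, with ligated 4 the highest and ligated 1 the lowest of its group. Eno3 rose by 2.53 ± 0.34 on the log2(FPKM + 1) scale (SE, limma adjusted p = 0.000346), and after median-ratio scaling by 2.07. Its mean was 17.4 ± 9.72 FPKM in ligated and 1.87 ± 0.507 FPKM in sham glands (SD, n = 5 each), 9.31 times higher.

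Pgam2 had 3.73, 13.9, 10.1, 28.8 and 13.3 FPKM in ligated libraries 1 to 5, against 4.51, 1.67, 2.27, 3.05 and 2.19 FPKM in sham libraries 1 to 5. Ligated 2 to 5 lay above every sham library, whereas ligated 1 lay between sham 1 and sham 4. Pgam2 rose by 1.81 ± 0.41 (limma adjusted p = 0.00436), and by 2.17 without ligated 1. In a voom fit on recovered reads its change of 1.57 was not called (adjusted p = 0.0738, with a range of 0.000159 to 0.0738 over the alternatives).

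Pygm had 0.486, 8.97, 4.66, 15.4 and 7.58 FPKM in ligated libraries 1 to 5, against 0.144, 0.358, 0.611, 0.770 and 0.348 FPKM in sham libraries 1 to 5. Ligated 2 to 5 were far above the sham libraries and ligated 1 was within their range. With 4 libraries at 1 FPKM or more Pygm missed the filter for testing. In a fit without that filter it was called higher, by 2.19 ± 0.54 (limma adjusted p = 0.0154). Its sham values rest on 6 to 34 reads a library and its ligated values on 22 to 711.

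**Figure D2:**
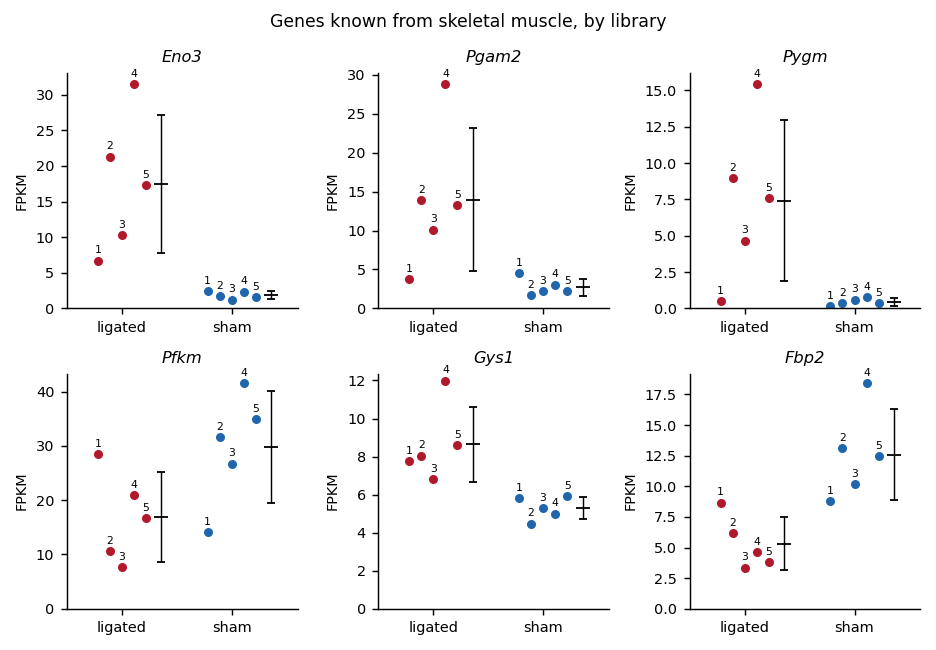
FPKM in each library (points, numbered by library; ligated red, sham blue) with the mean and SD of each group (n = 5) for 6 genes with isoforms known from muscle. Eno3, Pgam2 and Pygm are highest in ligated 4 (31.5, 28.8 and 15.4 FPKM), whereas Pfkm and Fbp2 are highest in sham 4 (41.6 and 18.4 FPKM).

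Skeletal muscle markers moved with these 3 genes. The 12 markers, among them the actin Acta1, creatine kinase Ckm and the myosin heavy chains Myh1, Myh2 and Myh4, summed to 32.0, 474, 211, 720 and 347 FPKM in ligated libraries 1 to 5 and to 1.80 to 4.19 FPKM in sham libraries. The difference was 5.98 on the log2 scale (exact permutation test, two-sided, p = 0.00794, the smallest that 252 splits of 5 against 5 can give). The list was drawn up with earlier results of these data known, so this p cannot serve as support and only the size is used. All 7 markers that were tested were called higher, but 5 of them (Atp2a1, Ckm, Myh1, Myh4 and Tnnt3) were below 1 FPKM in every sham library and had entered the test through ligated values alone. Mylpf reached 1 FPKM in only 1 sham library. Myh1, Myh2 and Myh4 were at 0 in every sham library, and Tnnc2 was at 0 in all 10.

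Eno3, Pgam2 and Pygm had the order of this sum across the ligated libraries (4, 2, 5, 3, 1, from highest to lowest). They were the only 3 of the 40 genes that did. Of all tested genes 2.13% did, a share that leaves out Pygm, which was not tested. Acta1 weighed most in the sum, with 280, 122, 383 and 179 FPKM in ligated 2 to 5. Mylpf, Atp2a1, Tnnt3, Myh2 and Ttn had the same order as Acta1 and the sum, whereas Ckm, Myh4, Myh1, Actn3 and Mb did not. Over ligated 2 to 5 Eno3, Pgam2 and Pygm each had a narrow ratio to the sum. Per 100 FPKM of muscle markers, Eno3 stood 4.01 to 4.46 FPKM above its sham mean, Pgam2 2.36 to 3.62 FPKM and Pygm 1.80 to 2.08 FPKM. In ligated 1, where the sum was lowest, the ratio was 15.1 FPKM for Eno3, 3.09 FPKM for Pgam2 and 0.125 FPKM for Pygm. The part of muscle RNA in the rise of these genes was not tested beyond these values. In bulk tissue a change in the number of cells of a type and a change in RNA per cell cannot be told apart, here and in all results that follow.

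**Figure D3:**
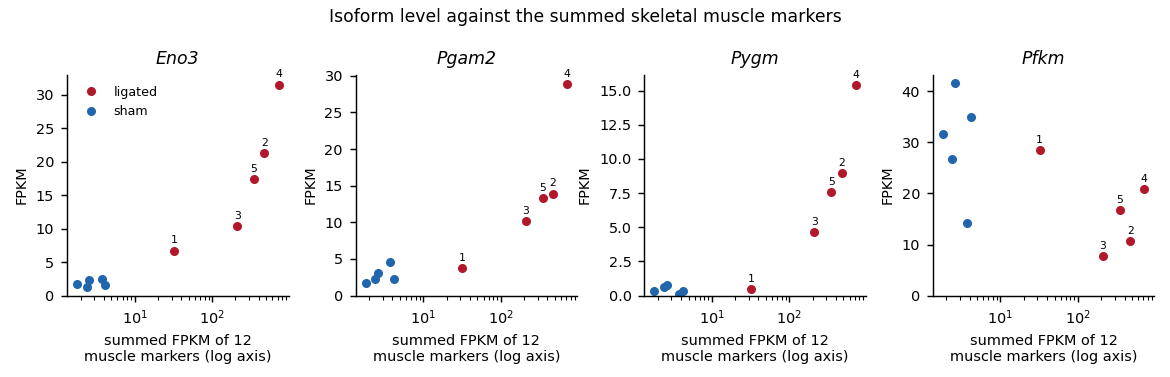
FPKM of 4 muscle isoforms against the summed FPKM of 12 skeletal muscle markers (log axis) in each library, ligated red and numbered, sham blue. Eno3, Pgam2 and Pygm climb with the sum across the ligated libraries (32.0 to 720 FPKM), while Pfkm is highest in ligated 1 (28.5 FPKM), where the sum is lowest.

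The other muscle isoforms did not follow. Pfkm, the muscle subunit of phosphofructokinase, had 28.5, 10.7, 7.71, 20.9 and 16.7 FPKM in ligated libraries 1 to 5, against 14.1, 31.6, 26.7, 41.6 and 34.9 FPKM in sham libraries 1 to 5. It was thus the highest phosphofructokinase subunit of the sham gland, which had almost no muscle markers. The groups overlapped through ligated 1, the highest ligated library, and sham 1, the lowest sham library. Its change of -0.83 ± 0.36 was not called (limma adjusted p = 0.0615). It was called lower without sham 1 (-1.07, adjusted p = 0.0138), without ligated 1 (-1.05, adjusted p = 0.0244) and after median-ratio scaling (-1.38, adjusted p = 0.0224). It was not called without the parotid libraries (-0.43), after rescaling to the same sum (-0.32) or without the lymph node libraries (-0.80), and the adjusted p ranged between 0.0124 and 0.389 over the alternatives. Pfkm (ENSMUSG00000033065.14) lies on chromosome 15 at 98092589 to 98132451, where Senp1 overlaps it on the other strand.

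Gys1, the glycogen synthase of muscle and most other tissues, had 7.75, 8.05, 6.83, 12.0 and 8.61 FPKM in ligated libraries 1 to 5, against 5.83, 4.47, 5.30, 5.00 and 5.91 FPKM in sham libraries 1 to 5. The groups did not overlap, and ligated 4 was the highest. The change of 0.60 ± 0.15 (limma adjusted p = 0.00739) did not reach the size needed for a call, lay close to the median of all genes and was 0.10 after median-ratio scaling. Gys2, the glycogen synthase known from liver, was at 0 in all sham libraries and between 0.0582 and 2.91 FPKM in ligated libraries.

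Fbp2, the muscle form of fructose-bisphosphatase, which works against phosphofructokinase, was alone among the 36 genes in being called lower as deposited. It had 8.67, 6.16, 3.35, 4.65 and 3.8 FPKM in ligated libraries 1 to 5, against 8.79, 13.1, 10.1, 18.4 and 12.5 FPKM in sham libraries 1 to 5. No ligated value reached the lowest sham value, that of sham 1, though ligated 1 came close to it. Fbp2 fell by 1.12 on the log2 scale (SE 0.25, limma adjusted p = 0.00391). Its size was below the limit for a call without sham 4 (-0.99) and without the 4 libraries with parotid transcripts (-0.95). Like Pfkm, Fbp2 went the other way from the muscle markers, and both had their highest ligated value in ligated 1, where the acinar marker sum was 60682 FPKM against 6739 to 27405 FPKM in the other ligated libraries; the part of the acinar cells in these values was not tested.

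Shares within an enzyme family do not depend on how the libraries are scaled, so each muscle isoform was set against its partners as a percentage of the family's summed FPKM. Exact two-sided permutation tests over the libraries were run on 9 such shares and adjusted over the 9. For 6 shares the adjusted p was 0.0595, for none was it lower, and a share that alone passed could not go below 0.0714. The shares are therefore given as values.

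Eno3 made up 11.8% ± 4.95 of enolase FPKM in ligated glands and 2.70% ± 0.635 in sham glands (SD, n = 5 each, exact p = 0.00794), with no overlap between the groups. Eno1, the widely expressed enolase, held most of the rest, with 98.5, 96.7, 137, 185 and 112 FPKM in ligated libraries 1 to 5, against 79.8, 56.5, 64.2, 65.6 and 69.1 FPKM in sham libraries 1 to 5. Eno1 lay higher in every ligated library than in any sham library, by 0.86 ± 0.19 on the log2 scale (limma adjusted p = 0.00417), which is not a call. It was called without the parotid libraries (1.07) and without the lymph node libraries (1.17). Eno2, the neuronal enolase, had 0.469, 1.87, 0.999, 1.28 and 0.690 FPKM in ligated libraries 1 to 5, against 0.394, 0.0700, 0.0860, 0.316 and 0.561 FPKM in sham libraries 1 to 5, and was not tested.

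Pgam2 made up 15.6% ± 7.70 of phosphoglycerate mutase FPKM in ligated glands and 5.79% ± 1.74 in sham glands (SD, n = 5 each, exact p = 0.0317). Ligated 1, at 5.22%, was inside the sham range. Pgam1 itself had 67.6, 60.4, 74.6, 82.4 and 69.4 FPKM in ligated libraries 1 to 5, against 48.8, 36.4, 37.6, 45.6 and 50.9 FPKM in sham libraries 1 to 5. Its groups did not overlap, and its change of 0.69 ± 0.14 (limma adjusted p = 0.00293) was below the size for a call.

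In the phosphorylase family the form that dominated the sham gland took a smaller share after ligation. Pygb, the brain form, had 30.5, 23.7, 18.7, 24.5 and 24.3 FPKM in ligated libraries 1 to 5, against 22.1, 19.99, 22.3, 32.3 and 26.3 FPKM in sham libraries 1 to 5. Its groups overlapped throughout (-0.01 ± 0.16, limma adjusted p = 0.959), and it made up 64.3% ± 13.5 of the family in ligated glands and 97.1% ± 0.787 in sham glands (SD, n = 5 each). Pygm took 18.3% ± 10.9 in ligated glands and 1.73% ± 0.809 in sham glands (SD, n = 5 each, exact p = 0.0397), with ligated 1 at 1.29%, inside the sham range.

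Pygl, the liver form of phosphorylase, which is also known from white blood cells, had 6.75, 2.46, 9.31, 14.1 and 2.62 FPKM in ligated libraries 1 to 5, against 0.796, 0.0478, 0.117, 0.180 and 0.313 FPKM in sham libraries 1 to 5. The groups did not overlap, and sham 1 was the highest sham library. Pygl rose by 2.44 ± 0.39 (limma adjusted p = 0.000769), and by 2.56 without sham 1. Its sham values rest on 4 to 71 reads a library.

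Pfkm went the other way within its family. It made up 45.7% ± 13.0 of phosphofructokinase FPKM in ligated glands and 72.4% ± 10.7 in sham glands (SD, n = 5 each, exact p = 0.0159). Ligated 1 (62.6%) and sham 1 (53.5%) made the groups overlap. Pfkp, the platelet form, had 5.25, 6.94, 7.28, 10.1 and 7.29 FPKM in ligated libraries 1 to 5, against 4.24, 2.15, 2.54, 2.34 and 3.16 FPKM in sham libraries 1 to 5.

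All ligated values of Pfkp were above all sham values, and it rose by 1.11 ± 0.18 (limma adjusted p = 0.00102), a call that median-ratio scaling removed (0.64, adjusted p = 0.00918, with a range of 0.000227 to 0.030 over the alternatives). Pfkl, the liver form, had 11.8, 7.99, 13.3, 15.1 and 8.4 FPKM in ligated libraries 1 to 5, against 8.03, 5.86, 5.58, 9.62 and 8.87 FPKM in sham libraries 1 to 5. These groups overlapped, and the change of 0.51 ± 0.21 had a limma adjusted p of 0.0511. The summed FPKM of the 3 subunits was 35.6 ± 9.64 in ligated and 40.3 ± 10.5 in sham glands (SD, n = 5 each).

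**Figure D4:**
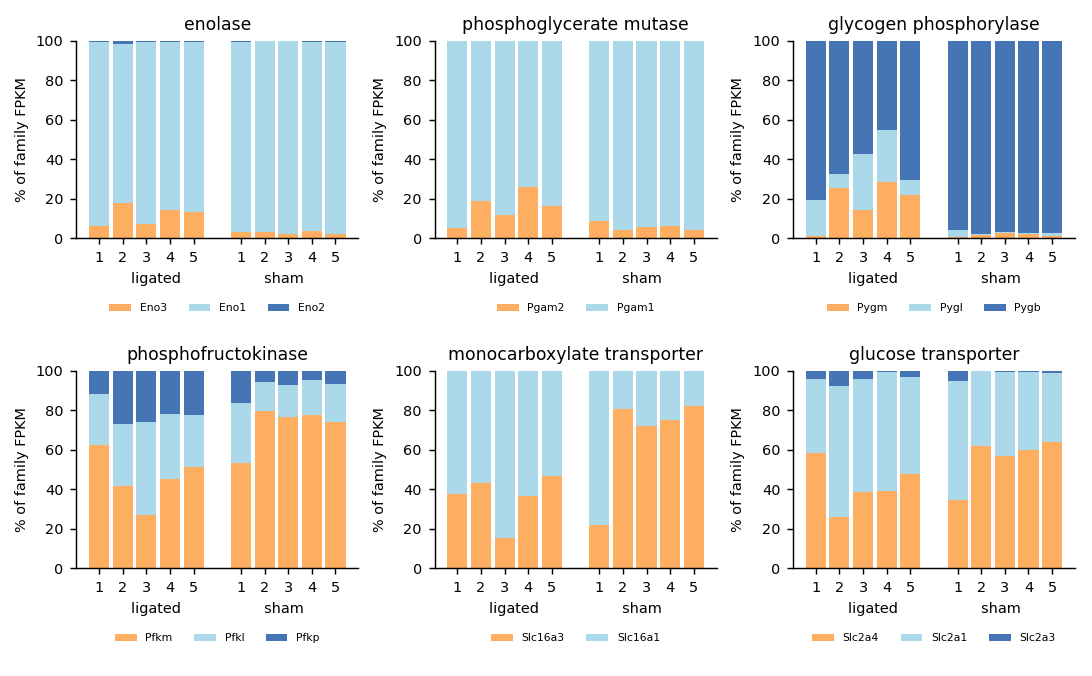
Share of each isoform in the summed FPKM of its family (stacked bars, percent) in every library, ligated 1 to 5 left of sham 1 to 5. Orange marks the tested isoform: the enolase, mutase and phosphorylase panels show larger orange shares in ligated 2 to 5, and the phosphofructokinase panel smaller ones (45.7% in ligated and 72.4% in sham glands on average).

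Among the remaining shares, Ldhb, the heart subunit of lactate dehydrogenase, made up 18.3% ± 3.65 of its family in ligated and 24.5% ± 3.40 in sham glands (SD, n = 5 each, exact p = 0.0238). The lactate exporter Slc16a3 made up 35.9% ± 12.3 of the monocarboxylate transporter pair in ligated and 66.3% ± 25.3 in sham glands (exact p = 0.0397, n = 5 each), and sham 1 alone among the sham libraries was low, at 21.7%. For Slc2a4, Hk2 and Aldoc the exact p was 0.127, 0.294 and 0.333, with n = 5 each. Single libraries decided which shares passed. Without sham 1, the shares of Eno3, Pfkm, Slc2a4, Ldhb and Slc16a3 differed by 9.12, -31.5, -18.7, -7.56 and -41.6 percentage points, ligated minus sham, each with an adjusted exact p of 0.0429. Without ligated 1, the shares of Eno3, Pgam2 and Pygm differed by 10.4, 12.4 and 20.8 percentage points (adjusted exact p = 0.0238 each), and that of Pfkm by -31.0 (adjusted exact p = 0.0357). Over the alternatives the adjusted p ranged between 0.0238 and 0.15 for Eno3, 0.0238 and 0.30 for Pgam2, and 0.0238 and 0.429 for Pygm. It ranged between 0.0357 and 0.15 for Pfkm, 0.0429 and 0.306 for Slc2a4, and 0.0429 and 0.15 for both Ldhb and Slc16a3. Except for Slc2a4, these upper ends came from the subset without the parotid libraries. That subset and the one without the lymph node libraries keep 2 ligated libraries each. With so few splits no share could pass there, so these subsets cannot show whether a share holds.

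None of the glucose transporters was called as deposited. Slc2a1, the widely expressed transporter, had 13.6, 16.8, 25.3, 40.3 and 14.1 FPKM in ligated libraries 1 to 5, against 15.2, 11.5, 11.5, 12.0 and 9.33 FPKM in sham libraries 1 to 5. Ligated 4 was the highest and the groups overlapped through sham 1 (0.73 ± 0.27, limma adjusted p = 0.0384), and it was called higher without the lymph node libraries (1.06, adjusted p = 0.0279, with a range of 0.00242 to 0.657 over the alternatives). Slc2a4, the insulin-responsive transporter of fat and muscle, averaged 17.0 ± 7.48 FPKM in ligated and 15.7 ± 4.10 FPKM in sham glands (SD, n = 5 each; 0.03 ± 0.33, adjusted p = 0.941), and its sign changed without ligated 1, 3 or 4 or sham 1, reaching -0.15. Slc2a3, the transporter known from neurons and white blood cells, was at 0.404 to 1.92 FPKM in ligated and 0.0682 to 1.26 FPKM in sham libraries, and was not tested.

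Of the hexokinases, which trap glucose in the cell, Hk3 was called. This form, known from myeloid cells, had 3.90, 4.83, 3.51, 3.51 and 4.16 FPKM in ligated libraries 1 to 5, against 0.924, 0.179, 0.926, 0.471 and 1.17 FPKM in sham libraries 1 to 5. The ligated values were close together and all above the sham values. Hk3 rose by 1.55 ± 0.18 (limma adjusted p = 0.000169), and by 0.93 with quantile normalization, under the size for a call. Macrophage markers, 8 of 8 tested higher, summed to 1226 to 2192 FPKM in ligated and 149 to 537 FPKM in sham libraries, and neutrophil markers, 4 of 4 tested higher, summed to 21.5 to 146 FPKM in ligated and 0.411 to 34.1 FPKM in sham libraries. Of these, Gpnmb and Retnlg were below 1 FPKM in every sham library and had entered the test through ligated values alone. S100a8 and Csf3r reached 1 FPKM in only 1 sham library each, as did Hk3 itself, and S100a9 in 2. The part of these cells in the Hk3 level was not tested. Unc5a overlaps Hk3 on the other strand, and whether reads were counted by strand was not stated. Genes on the other strand also overlap Pfkp, Pfkfb1, Pfkfb2, Tpi1, Gapdh, Gys1 and Pgm1. These overlaps are of whole gene spans, and whether exons overlap was not examined. Where exons do overlap, reads of such a pair cannot be told apart without strand.

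The other hexose genes were not called. Hk1, the form of most tissues, averaged 16.1 ± 3.85 FPKM in ligated and 12.7 ± 2.08 FPKM in sham glands, and Hk2, the insulin-regulated form of muscle and fat, 13.7 ± 5.16 FPKM in ligated and 11.1 ± 2.91 FPKM in sham glands (SD, n = 5 each). Gpi1, which interconverts glucose and fructose phosphates, averaged 51.9 ± 10.8 FPKM in ligated and 37.5 ± 5.00 FPKM in sham glands (0.45 ± 0.16, limma adjusted p = 0.0310). All 3 had the other sign after median-ratio scaling.

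The bifunctional PFKFB enzymes make and break fructose-2,6-bisphosphate, the main activator of phosphofructokinase. Of the 3 that were tested 2 were called higher (background 17.1%). Pfkfb3, a form with high kinase activity that is induced by hypoxia and inflammatory signals, had 8.37, 10.1, 19.996, 19.4 and 8.6 FPKM in ligated libraries 1 to 5, against 4.85, 0.959, 1.15, 1.03 and 1.09 FPKM in sham libraries 1 to 5. The groups did not overlap, and sham 1 stood well above the other sham libraries. Pfkfb3 rose by 2.40 ± 0.35 (limma adjusted p = 0.000527), and by 2.70 without sham 1.

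Pfkfb4, known from testis and induced by hypoxia, had 3.72, 7.16, 4.85, 7.91 and 7.39 FPKM in ligated libraries 1 to 5, against 1.92, 1.35, 1.28, 1.17 and 1.30 FPKM in sham libraries 1 to 5. Again there was no overlap and sham 1 was the highest sham library. Pfkfb4 rose by 1.55 ± 0.19 (limma adjusted p = 0.000233), and by 0.92 with quantile normalization, under the size for a call. Pfkfb2, the heart form, averaged 2.84 ± 0.840 FPKM in ligated and 3.34 ± 0.690 FPKM in sham glands (SD, n = 5 each, not called), and Pfkfb1, the liver and muscle form, was at 0.462 to 1.52 FPKM in ligated and 0.289 to 0.756 FPKM in sham libraries and was not tested.

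The widely expressed enzymes between aldolase and pyruvate kinase were among the most abundant transcripts of the 40 and as deposited differed by less than the call requires. Aldoa, the main aldolase, had the highest mean of the 40 genes, with 199.7 ± 67.8 FPKM in ligated and 132.8 ± 23.3 FPKM in sham glands (SD, n = 5 each). Gapdh averaged 177 ± 31.4 FPKM in ligated and 108 ± 10.4 FPKM in sham glands, and Pkm, pyruvate kinase, 108 ± 14.97 FPKM in ligated and 56.9 ± 7.41 FPKM in sham glands. Both were higher in every ligated library than in any sham library (0.70 ± 0.15, limma adjusted p = 0.00336 for Gapdh; 0.91 ± 0.14, adjusted p = 0.000711 for Pkm). Pkm was called higher without the parotid libraries (1.05) and without the lymph node libraries (1.13). Near-identical copies of these genes, such as Eno1b and Pgam1-ps2, were listed at no more than 1.64 FPKM in any library, and how reads shared with such copies were counted was not stated.

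Pgk1, phosphoglycerate kinase, averaged 92.3 ± 14.2 FPKM in ligated and 67.3 ± 9.06 FPKM in sham glands, and Tpi1, triose phosphate isomerase, 107 ± 21.4 FPKM in ligated and 100.4 ± 23.4 FPKM in sham glands (SD, n = 5 each). Aldoc, the brain aldolase, averaged 3.37 ± 1.05 FPKM in ligated and 1.91 ± 0.560 FPKM in sham glands. By the adjusted p alone 9 of the 10 tested genes of this group were higher, where 56.8% of all tested genes were, Tpi1 being the exception (0.10 ± 0.20, limma adjusted p = 0.666). After median-ratio scaling Aldoa (-0.02), Tpi1 (-0.47) and Pgk1 (-0.12) had a negative sign, and 3 of the 10 kept an adjusted p under 0.05 and a positive sign (background 17.1%). Gapdh, often used as a reference transcript, thus differed between the groups as deposited and by 0.13 after scaling (adjusted p = 0.458, with a range of 0.000373 to 0.859 over the alternatives).

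In lactate and pyruvate handling 3 of 7 genes were called, all higher (background 17.1%). Pdk4, the pyruvate dehydrogenase kinase that rises in fasting and in fat-burning tissue, had 15.7, 17.7, 51.9, 52.7 and 34.3 FPKM in ligated libraries 1 to 5, against 2.05, 2.93, 2.73, 2.68 and 4.71 FPKM in sham libraries 1 to 5. The lowest ligated value was far above the highest sham value, and ligated 3 and 4 were the highest. Pdk4 rose by 3.00 ± 0.34 (limma adjusted p = 0.000169) and by 2.51 after median-ratio scaling, the largest change of the 36 genes under both. The ranking depends on the pseudocount of 1 used in both. With a pseudocount of 0.1 the change was 3.34 for Pdk4, 4.17 for Pygl and 3.36 for Slc16a1. In the voom fit it was 2.84, 4.18 and 2.88 in the same order.

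The adipocyte markers were also highest in ligated 3 and 4. The 10 markers, 8 of them tested and called higher (Adipoq, Lep and Plin1 only through ligated values, being below 1 FPKM in every sham library), summed to 334, 248, 788, 1138 and 444 FPKM in ligated libraries 1 to 5 and to 1.47 to 21.1 FPKM in sham libraries. Cidec and Retn reached 1 FPKM in only 1 sham library each. Ucp1, which defines brown and beige fat, was at 13.2, 0, 95.5, 120 and 5.40 FPKM in ligated libraries 1 to 5 and at 0 in every sham library. Over the ligated libraries Pgam1 and Eno1 had the order of the adipocyte sum (4, 3, 5, 1, 2), as 0.641% of all tested genes did, while Pdk4 differed from it in the placing of ligated 1 and 2. The part of fat RNA in the Pdk4 level was not tested.

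Pdk1 and Pdk2, the kinases known from hypoxia and from most tissues, were not called. Pdk1 averaged 5.76 ± 1.24 FPKM in ligated and 5.85 ± 1.67 FPKM in sham glands, and Pdk2 19.9 ± 5.26 FPKM in ligated and 21.7 ± 3.92 FPKM in sham glands (SD, n = 5 each). The group of kinases thus split, with Pdk4 alone called.

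Slc16a1, which carries lactate and pyruvate in both directions, had 6.75, 5.80, 16.7, 16.3 and 6.84 FPKM in ligated libraries 1 to 5, against 4.45, 0.335, 0.509, 0.765 and 0.542 FPKM in sham libraries 1 to 5. Ligated 3 and 4 were the highest, and sham 1 stood near the lowest ligated library. Slc16a1 rose by 2.41 ± 0.42 (limma adjusted p = 0.00128), and by 2.78 without sham 1.

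Slc16a3, the low-affinity lactate exporter of glycolytic cells, had 4.07, 4.42, 3.02, 9.41 and 6.05 FPKM in ligated libraries 1 to 5, against 1.24, 1.39, 1.30, 2.30 and 2.53 FPKM in sham libraries 1 to 5. Ligated 4 was the highest and the groups did not overlap. Slc16a3 rose by 1.16 ± 0.25 (limma adjusted p = 0.00374). The change was 0.97 without ligated 4 (adjusted p = 0.0061) and 0.74 after median-ratio scaling, both under the size for a call (the adjusted p ranged between 0.000499 and 0.15 over the alternatives).

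Ldha, the lactate dehydrogenase subunit of glycolytic tissue, averaged 139 ± 26.8 FPKM in ligated and 73.0 ± 11.1 FPKM in sham glands (SD, n = 5 each), with no overlap and a change of 0.92 ± 0.17 (limma adjusted p = 0.00160). It was called higher without the parotid libraries (1.03) and without the lymph node libraries (1.1). Ldhb averaged 32.0 ± 12.2 FPKM in ligated and 23.3 ± 2.34 FPKM in sham glands and its groups overlapped.

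**Figure D5:**
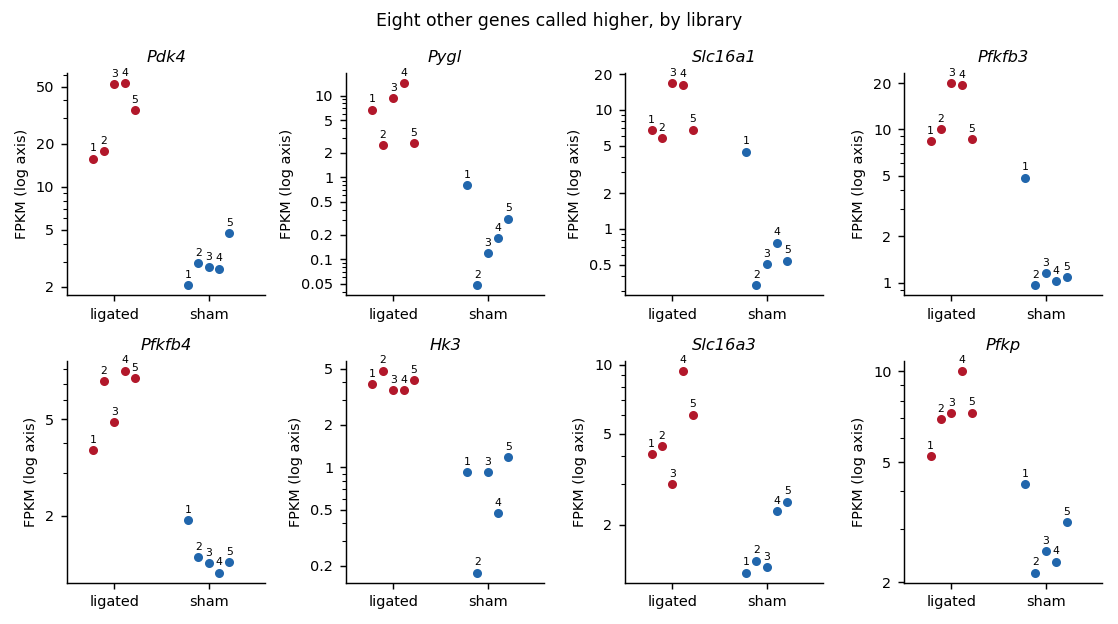
FPKM (log axis) in each library for 8 genes called higher beside Eno3 and Pgam2, ligated red on the left and sham blue on the right, points numbered by library. No ligated point lies below a sham point in any panel, and sham 1 is the highest sham library for Pygl, Slc16a1, Pfkfb3, Pfkfb4 and Pfkp.

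The remaining glycogen genes as deposited differed by less than the call requires. Pgm1 and Pgm2, phosphoglucomutases that link glycogen to glycolysis, averaged 11.1 ± 1.63 and 18.9 ± 5.40 FPKM in ligated glands and 6.90 ± 1.44 and 9.67 ± 0.852 FPKM in sham glands (SD, n = 5 each). Neither overlapped between the groups, with changes of 0.62 ± 0.15 for Pgm1 and 0.86 ± 0.18 for Pgm2 (limma adjusted p = 0.00692 and 0.00335). Pgm2 was called higher without the lymph node libraries (1.19). The 2 symbols have been exchanged in some annotations: the values gave whole reads in 10 of 10 libraries with the gene model of chromosome 4 for Pgm1 and of chromosome 5 for Pgm2, and in 0 of 10 the other way. Gbe1, the glycogen branching enzyme, averaged 5.54 ± 2.08 FPKM in ligated and 3.46 ± 0.551 FPKM in sham glands and was not called.

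Of 59 other genes of glycolysis, gluconeogenesis, pyruvate, glycogen and the pentose phosphate pathway, 46 were tested, 8 were called higher (background 17.1%) and 1 lower (background 1.16%), with a median change of 0.38 against 0.53 over all genes tested. The largest rise was that of Pck1 (2.88 ± 0.71, limma adjusted p = 0.00694), the gluconeogenic enzyme that also feeds fat synthesis and is 1 of the adipocyte markers. Pck1 had 47.7, 1.49, 40.7, 29.2 and 11.3 FPKM in ligated libraries 1 to 5, against 1.89, 1.61, 0.270, 2.48 and 1.63 FPKM in sham libraries 1 to 5, so ligated 2 lay within the sham range.

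Gpd1 (1.77 ± 0.46), which makes glycerol phosphate, Stbd1 (1.64 ± 0.19), a glycogen-binding protein, and Bpgm (1.54 ± 0.28), which makes bisphosphoglycerate, were also called higher. The fructose transporter Slc2a5 fell by 1.57 on the log2 scale (SE 0.28, limma adjusted p = 0.00133), with a mean of 2.68 ± 1.85 FPKM in ligated and 9.14 ± 1.63 FPKM in sham glands (SD, n = 5 each). After median-ratio scaling 3 of these genes were higher (background 7.87%) and 4 lower (background 3.31%), and the median was -0.16 against 0.07 over all genes tested.

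Of 15 hypoxia-linked genes 13 were tested. Ndrg1 (1.44), P4ha1 (1.35) and Myc (1.14) were called higher (3 of 13, background 17.1%), and the angiogenic factor Vegfa (-1.12, limma adjusted p = 0.0467) lower (background 1.16%). The call of Vegfa was lost without any of ligated 2, 3 or 5 or sham 2, 3, 4 or 5, leaving 0 lower, and without sham 1 the number called higher was 5. Hif1a, the oxygen-regulated subunit of the hypoxia factor, was higher in every ligated library than in any sham library by 0.90 ± 0.20 (adjusted p = 0.00404), under the size for a call. After median-ratio scaling 1 of the 13 was higher (background 7.87%) and 1 lower (background 3.31%).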

How the data were processed

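RNA from 10 submandibular gland libraries, 5 ligated and 5 sham, was sequenced after SMARTer library preparation, per the labels' protocols. The authors deposited 1 FPKM table with 1 column per library, on GRCm38 (mm10) according to the submitters' processing notes. For the aligner, counter, annotation and strand setting, nothing is given in the sources used here. Multiplied by merged exon lengths of GENCODE M21, 98.3% to 98.4% of low values (below 200 reads, tolerance 0.01 of a read) were whole reads. Aldoa has more than 1 model of its symbol and was left out of that step. Whether a unit is a read or a pair was not stated. Of the whole values below 21 reads 67.6% to 75.6% were even, so low values often came in steps of 2. The read numbers given here may thus exceed the number of independent fragments.

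Log2(FPKM + 1) values of genes that reached 1 FPKM in 5 or more libraries were fitted with limma 3.58.1 in R 4.3.3 (2 groups, no covariate, moderation with a trend), with Benjamini-Hochberg adjustment over all genes tested. A pseudocount of 1 understates the change of low genes. Median ratios used genes above 1 FPKM in every library. Shares were tested by exact permutation. P-values measure the spread between the libraries of a group, and positions come from GENCODE M21. Alternatives were other scalings, pseudocounts and filters, voom on recovered reads with TMM factors, a replicate block, each library left out, and the libraries with parotid or lymph node transcripts left out. The last 2 rest on 2 ligated libraries each.

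The genes and lists were chosen with earlier results of these data known. Values of every library are given for the 5 muscle isoforms, their family partners and up to 3 called genes of each role with the largest change (or, with none called, the gene of highest mean). Of the other pathway genes the 4 largest called changes in each direction are named. The hypoxia-linked genes named, the other genes of the 40 and the Y-linked genes were picked outside this rule, after their values were seen.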

Additional observations from a re-analysis of the deposited data

Results flagged for a closer look

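In 98 groups of 5 values (40 genes and 9 shares in each group of libraries), 10 held a library that lay apart from the other 4 by more than 0.71 of the group's range, on the log2(FPKM + 1) scale for levels. Chance alone marks about 1 in 20 groups. Sham 1 was that library in 7 of the 10.

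In sham 1, Pfkfb3 was high at 4.85 FPKM (0.959 to 1.15 FPKM in the other sham libraries), Slc16a1 was high at 4.45 FPKM (others 0.335 to 0.765 FPKM), and Pfkfb4 was high at 1.92 FPKM (others 1.17 to 1.35 FPKM). Slc2a4 was low there at 8.74 FPKM (others 15.3 to 18.8 FPKM). In the same library the share of Pfkm in its family was low at 53.5% (others 74.4% to 79.8%), that of Slc2a4 at 34.7% (others 56.8% to 64.3%) and that of Slc16a3 at 21.7% (others 71.9% to 82.3%). Sham 1 also held lymph node markers at 441 FPKM and the highest macrophage sum of the sham group, 537 FPKM. Lyz2 alone gave 394 FPKM of that sum (others 52.3 to 74.8 FPKM). Cd68, Csf1r and Gpnmb were also highest in sham 1, whereas Adgre1, C1qa, C1qb and Spp1 were not, and Spp1 was lowest there. The part of lymph node and macrophage RNA in the values of sham 1 was not tested.

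In ligated 4, Aldoa was high at 319 FPKM (153 to 189 FPKM in the other ligated libraries) and Gapdh was high at 233 FPKM (others 159 to 172 FPKM). Ligated 4 had the highest muscle and adipocyte sums, and their part was not tested. In ligated 5, Pdk1 was low at 3.65 FPKM (others 5.82 to 6.67 FPKM).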

How the results depend on the processing

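Of the 10 genes called higher, 10 kept that call with a pseudocount of 0.1, with no filter, with a replicate block and without the libraries with parotid or lymph node transcripts (the last was chosen after the data were seen), and none changed sign under any setting. With other settings the number of the 36 genes called higher was 8 with median ratios (Pfkp and Slc16a3 lost, background 7.87%). It was 6 with quantile normalization (Hk3, Pfkp, Pfkfb4 and Slc16a3 lost), where 689 of all 11856 tested genes were. After rescaling to the same sum it was 25, where 6675 of 11856 were. A filter at 5 FPKM leaves 5 of the called genes untested, and 5 of 28 were called higher, where 1166 of 6572 were. Of the 36 genes 13 were called higher without the parotid libraries (background 18.3%) and 15 without the lymph node libraries (background 21.9%), with 2 ligated libraries in each fit. Voom on recovered reads called 8 of 35 higher, with Pfkp and Pgam2 lost, where 1269 of 11709 tested genes were. The number called lower was 2 with median ratios, quantile normalization and voom (Pfkm added), where 393, 509 and 527 of all tested genes were. It was 0 after rescaling to the same sum (78 of all tested genes) and without the parotid libraries (79 of all tested genes), with Fbp2 lost. Leaving out each library gave 9 to 10 higher and 0 to 2 lower.

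Over all genes tested, 2031 were higher as deposited, 933 with median ratios, 689 with quantile normalization and 6675 with the same sum, of 11856 each. With a filter at 5 FPKM 1166 of 6572 were higher, and with voom 1269 of 11709. Lower were 138 as deposited, and 393, 509, 78 and 527 with median ratios, quantile normalization, the same sum and voom, and 79 without the parotid libraries. Each library left out gave 1725 to 2732 higher and 102 to 202 lower. Of the other pathway genes (8 higher, 1 lower), 3 were higher and 4 lower with median ratios, 2 and 5 with quantile normalization, and 3 and 6 with voom; 19 were higher with the same sum and 4 with the filter at 5 FPKM, and each library left out gave 6 to 9 higher. Of the hypoxia-linked genes (3 higher, 1 lower), 1 was higher with median ratios and with voom, 0 with quantile normalization and 9 with the same sum, and 0 were lower with the same sum, no filter, the replicate block or without the parotid libraries. Each library left out gave 2 to 5 higher and 0 to 1 lower.

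Uncalled genes changed sign as follows, in log2 fold change with median ratios, quantile normalization and voom, in that order: Slc2a4 (-0.51, -0.54, -0.53), Hk1 (-0.23, -0.26, -0.25), Hk2 (-0.27, -0.32, -0.29), Gpi1 (-0.11, -0.11, -0.11), Pfkl (-0.0030, -0.078, -0.0027), Tpi1 (-0.47, -0.51, -0.47), Pgk1 (-0.12, -0.15, -0.11) and Ldhb (-0.19, -0.19, -0.18). Aldoa changed sign with median ratios (-0.021) and quantile normalization (-0.13), and Aldoc (-0.042), Gys1 (-0.032) and Gbe1 (-0.12) with quantile normalization. With the same sum Pfkfb2 (0.26), Pdk1 (0.51), Pdk2 (0.40) and Pygb (0.54) turned positive, as did Pdk1 (0.23), Pdk2 (0.10) and Pygb (0.14) without the parotid libraries and Pdk2 (0.023) without the lymph node libraries. Each library left out gave -0.15 to 0.31 for Slc2a4, -0.12 to 0.12 for Pdk1 and -0.093 to 0.089 for Pygb. The cause of these changes was not tested.

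Differences in share with each library left out were 7.57 to 10.4 percentage points for Eno3, 7.21 to 12.4 for Pgam2, 14.0 to 20.8 for Pygm, -31.5 to -22.1 for Pfkm, -18.7 to -9.48 for Slc2a4, -7.56 to -4.997 for Ldhb and -41.6 to -25.2 for Slc16a3. Deviations of same-numbered libraries from their group means correlated at 0.178, -0.378, -0.0798, 0.329 and 0.577 across genes, and 4 of 10 libraries correlated best with their own number, so the numbers were not taken to pair the libraries; with the replicate block 10 of the 36 genes were higher and 1 lower.

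Depth limits low values: 3 reads in a gene of 1 kilobase amount to 0.173 to 0.248 FPKM, counting error only. The gene models of Pygm and Pygl are longer, at 3218 and 6895 bases, so 3 reads amount to less there. Their sham values rest on 6 to 34 and on 4 to 71 reads a library.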
